A study of Mus musculus with 17 samples.

Results

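The genes described here build the hyaluronan matrix of the cumulus, the cloud of cells that surrounds the oocyte at ovulation. They are Has2, Tnfaip6, Ptx3, Vcan, Hapln1, Cd44, Ugdh and Ugp2, taken by gene symbol from a deposited table of 25198 rows. All 8 symbols were in the table, and 7 passed the filter on low counts and were tested, Hapln1 being the exception. The samples were antral follicles of CD1 mice, 16 days old, after 8 days of growth in eIVFG, a system for growing follicles encapsulated outside the body. The Tyrphostin group (6 libraries) had 4 h of hCG, the gonadotropin used to start ovulation in culture, together with 10 µM Tyrphostin-AG1478 in DMSO. Tyrphostin-AG1478 inhibits the kinase of the EGF receptor. The Control group (11 libraries) carries the same treatment text in the labels, so whether these follicles also had hCG and DMSO for the same time is not stated. Each sample held 3 whole follicles, so cumulus, mural granulosa, theca and oocyte RNA were mixed, and in such bulk samples fewer cells of a type and less RNA per cell cannot be told apart.

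After the ovulatory surge, mural granulosa cells release EGF-like ligands, which act on EGF receptors of the cumulus cells. Those cells then make hyaluronan, a long unsulfated sugar polymer, and spin it into an elastic matrix. HAS2 polymerises hyaluronan at the plasma membrane from UDP-glucuronate and UDP-N-acetylglucosamine. UGP2 makes UDP-glucose and UGDH oxidises it to UDP-glucuronate. TNFAIP6, also called TSG-6, transfers heavy chains of the serum protein inter-alpha-inhibitor onto the polymer, and the multimeric pentraxin PTX3 holds several of those heavy chains together. Versican (VCAN) binds hyaluronan and the link protein HAPLN1 locks that contact, while CD44 is the main hyaluronan receptor of the cell surface.

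The libraries fall into 2 batches named in the labels: batch 1 has 6 Control and 3 Tyrphostin libraries, and batch 2 has 5 and 3. Total counts ran from 1820545 to 8291024 per library. Levels are in CPM, a gene's counts relative to the library total after TMM scaling (a correction for differences in RNA composition), and a floor of 3 counts corresponded to 0.336 to 1.64 CPM. Changes are log2 fold changes of Tyrphostin against Control with their standard error (SE), from edgeR's quasi-likelihood test with batch as a term and Benjamini-Hochberg adjustment over the 9603 genes tested; a gene was called at an adjusted p under 0.05. In that test 600 genes (6.25%) were called lower and 418 (4.35%) higher, 10.6% in all, so 41.1% of the calls were higher. Scaled by total counts alone, 64.4% were higher and the log2 change of the median gene went from 0.00 to 0.14. Among markers of the labelled tissue, Inha and Inhba had 3517773 and 1908559 counts in all, whereas Foxl2 had 77 counts over all libraries and Amh 10. Control libraries fall into 5 sets by the first number of their library names, and the labels do not say if a set came from 1 culture or shared animals, so p-values measure the spread between libraries, which may be in part technical.

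Has2, Tnfaip6 and Ptx3 fell 4.96-, 4.72- and 9.36-fold in Tyrphostin libraries, and Ugdh fell 1.68-fold at the edge of the threshold. Thus 4 of the 7 tested members were called lower and 0 higher, beside 6.25% and 4.35% of all genes. Vcan and Cd44 had negative values that did not pass the test, Ugp2 had a small positive one, and Hapln1 had too few counts. The median log2 fold change of the 7 was -0.81, against 0.00 for all genes tested. These genes were chosen with earlier results of the same data known.

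**Figure D1:**
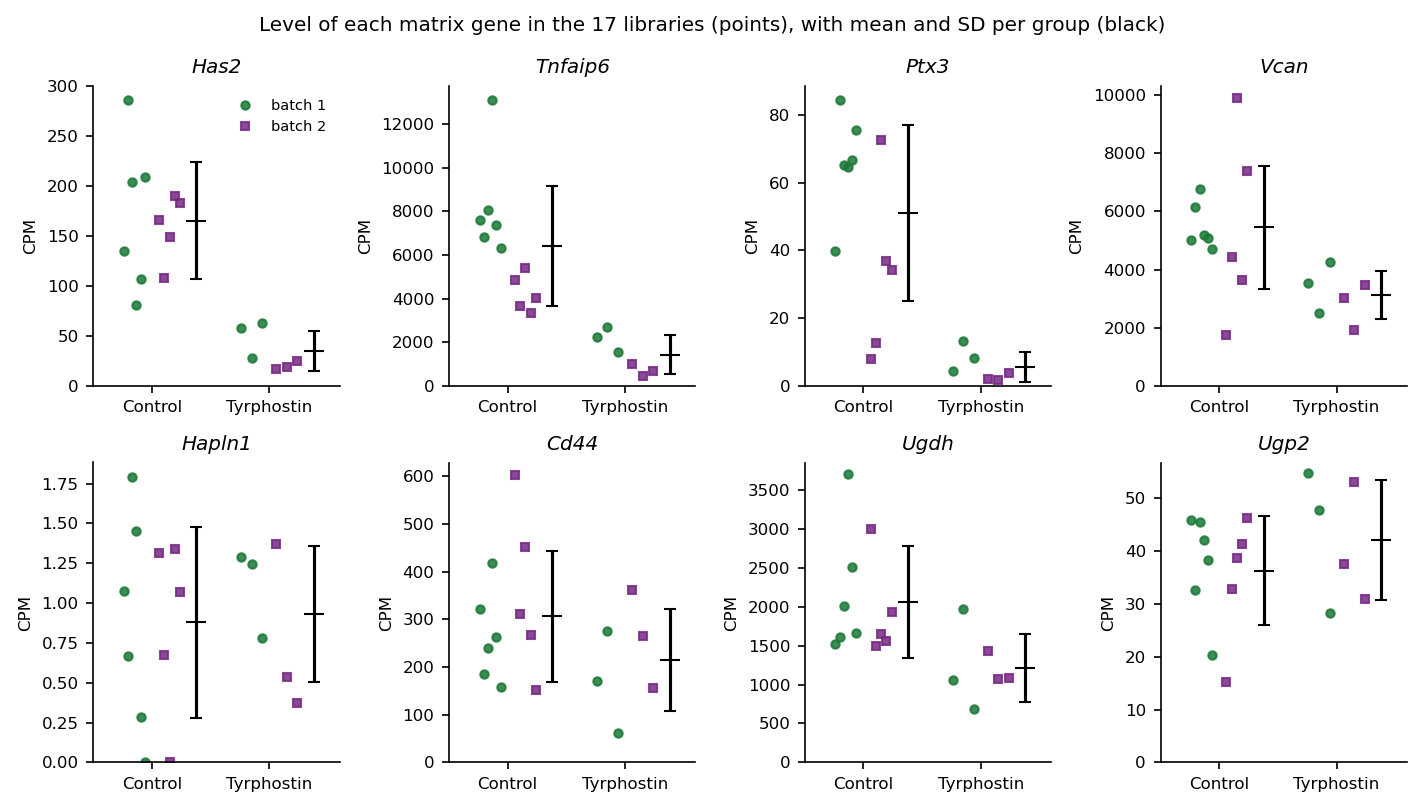
Level of each of the 8 genes in every library, in CPM on linear axes that start at 0; circles are batch 1, squares batch 2, and the black bars give mean and SD over the 11 Control and 6 Tyrphostin libraries. For Has2 and Tnfaip6 the 6 Tyrphostin libraries lie below all 11 Control libraries, whereas for Hapln1, Cd44 and Ugp2 the groups overlap.

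Has2 encodes the synthase of the cumulus matrix. In GRCm38 with GENCODE M21 it lies on the minus strand at chr15:56665627-56694539, with 1 annotated transcript and 4237 exonic bases. In Control libraries Has2 ran from 81.2 to 287 CPM with a median of 166 CPM. In Tyrphostin 1 to 6 it was 58.1, 28.1, 63.2, 17.1, 18.6 and 25.2 CPM. Every Tyrphostin library was below every Control library, which held for 1.00% of all genes tested. The means were 166 CPM ± 58.3 (SD, n = 11) and 35.1 CPM ± 20.3 (SD, n = 6), which the fit put at a log2 change of -2.31 ± 0.30 (SE; adjusted p by edgeR = 1.99e-05). The 3 Tyrphostin libraries of batch 2 were the lowest of all 17. The antisense transcript Has2os shares 182 exonic bases with Has2 and reached at most 22.7 CPM, and whether the counting used strand is not given in the sources used here, so reads of the pair cannot be told apart in those bases.

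Tnfaip6 had the highest mean CPM of the members in Control libraries, whereas Vcan was higher in Tyrphostin libraries and in Control libraries of batch 2. Tnfaip6 lies on the plus strand at chr2:52038009-52056686. Control libraries ran from 3359 to 13109 CPM with a median of 6334 CPM, and Tyrphostin 1 to 6 had 2242, 2677, 1538, 988, 453 and 684 CPM. The groups did not overlap, and the 3 lowest libraries were again Tyrphostin libraries of batch 2. Mean levels were 6420 CPM ± 2755 (SD, n = 11) for Control and 1430 CPM ± 887 (SD, n = 6), which the fit put at a log2 change of -2.24 ± 0.24 (SE; adjusted p by edgeR = 1.46e-06). This was the 14th lowest p of the 9603 genes.

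Ptx3, at chr3:66219910-66225805 on the plus strand within the span of the oppositely oriented gene Veph1 and sharing 0 exonic bases with it, had the largest fold change of the members at a far lower level. In Control libraries of batch 1 it was 39.9, 84.3, 65.2, 64.7, 66.6 and 75.5 CPM, and in those of batch 2 it was 7.87, 12.8, 72.5, 36.8 and 34.2 CPM. Tyrphostin 1 to 6 had 4.45, 13.4, 8.19, 1.92, 1.62 and 3.92 CPM. The groups overlapped in the pooled data, because Control 7 and Control 8 lay below Tyrphostin 2, the highest Tyrphostin library, but within each batch every one of the 3 Tyrphostin libraries lay under the lowest Control library. This held for 6.30% of all genes in batch 1 and 5.08% in batch 2. Mean levels were 50.9 CPM ± 26 (SD, n = 11) for Control and 5.58 CPM ± 4.48 (SD, n = 6), which the fit put at a log2 change of -3.23 ± 0.43 (SE; adjusted p by edgeR = 5.83e-05). Its spread within a group and batch (SD 0.82 on the log2 scale) was wider than that of 90.1% of genes tested, while that of Tnfaip6 was 0.39 and that of the median gene 0.47. The lowest Ptx3 libraries held few counts: 14, 6 and 21 in Tyrphostin 4, 5 and 6.

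The 250 bases before the RefSeq start of Tnfaip6 and Ptx3 (GRCm38.p6) are printed here because both genes encode cross-linkers of the same matrix and both fell; 7 of the 8 members matched the promoter table, Has2 not. The windows are chr2:52037863-52038112 for Tnfaip6 and chr3:66219637-66219886 for Ptx3, both on the plus strand, 5′ to 3′, and capitals mark the motif matches.
Tnfaip6: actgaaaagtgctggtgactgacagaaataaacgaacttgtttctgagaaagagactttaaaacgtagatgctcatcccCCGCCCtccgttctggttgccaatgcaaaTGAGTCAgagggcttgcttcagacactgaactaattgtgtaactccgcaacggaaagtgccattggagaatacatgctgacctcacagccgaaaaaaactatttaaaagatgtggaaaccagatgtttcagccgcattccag
Ptx3: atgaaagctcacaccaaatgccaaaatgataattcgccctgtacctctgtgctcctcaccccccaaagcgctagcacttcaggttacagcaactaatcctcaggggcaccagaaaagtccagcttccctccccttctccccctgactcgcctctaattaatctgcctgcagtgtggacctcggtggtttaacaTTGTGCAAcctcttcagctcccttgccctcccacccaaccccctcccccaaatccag
Both strands were searched for TATAAA (a core promoter box), GGGCGG (GC box), TGACG (core of the cyclic AMP response element), TGANTCA (AP-1), TTGCNNAA (C/EBP-like), TGTGGT (RUNX core) and CCGGAAG (ETS). Tnfaip6 held a GC box from 171 to 166 and an AP-1 match, TGAGTCA, from 142 to 136 bases before the start. Distances are from the RefSeq start: the Tnfaip6 window ends within the gene as GENCODE places it, from chr2:52038009. The windows of Hapln1 (chr13:89540386-89540635) and of Ugp2 at chr11:21370630-21370879 lie wholly within the GENCODE spans of those genes, and that of Ugdh in part. Of 32851 windows of this length in the table, 32.7% hold GGGCGG and 6.75% hold TGANTCA. Ptx3 held a C/EBP-like match, TTGTGCAA, from 57 to 50 bases before the start, a motif found in 9.56% of windows. These matches describe letters and not binding. Over the 8 windows of the 7 matched members (Ugp2 has 2), GGGCGG occurred in 5, TTGCNNAA in 2, TGANTCA and TGTGGT in 1 each, while neither TATAAA nor TGACG nor CCGGAAG was found (0 windows each); in the whole table these are in 12.4%, 17.8% and 6.91% of windows, and TGTGGT is in 14.0%. No searched motif overlapped another in the printed windows.

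Versican and its link protein are encoded side by side: Hapln1 (chr13:89539796-89611652, plus strand) and Vcan (chr13:89655312-89742509, minus strand) are separated by 43.7 kb with 0 annotated protein-coding genes between them. Their levels were far apart. Vcan ran from 1740 to 9901 CPM in Control libraries with a median of 5081 CPM, and was 3522, 2516, 4266, 3005, 1920 and 3461 CPM in Tyrphostin 1 to 6. All 6 Tyrphostin libraries were below the Control median, and 0 of 6 lay under the lowest Control library, since Control 7 held the lowest value of all. The means were 5458 CPM ± 2117 (SD, n = 11) and 3115 CPM ± 826 (SD, n = 6), which the fit put at a log2 change of -0.81 ± 0.27 (SE; adjusted p by edgeR = 0.0532), just short of the threshold. Vcan passed in 2 of 17 omissions of 1 library: without Control 7 (-0.91, edgeR adjusted p = 0.0066) and without Control 10 (-0.85, 0.0494). Over the 17 omissions the value ran to -0.65 (without Control 9) and the edgeR adjusted p to 0.132. Over the 13 other alternatives the adjusted p ran from 0.0203 to 0.103, passing in 4.

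Hapln1 was at the edge of detection. Its counts were 0 to 7 in Control and 2 to 10 in Tyrphostin libraries, 42 and 35 counts in all, which gave 0.879 CPM ± 0.602 (SD, n = 11) and 0.933 CPM ± 0.426 (SD, n = 6). Both means were within the range that 3 counts represent in these libraries. Without the filter on low counts the log2 fold change was 0.10 ± 0.58 (SE; adjusted p by edgeR = 0.967).

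Cd44, the hyaluronan receptor (chr2:102811141-102901665, minus strand, 9 annotated transcripts, which gene counts do not separate), ran from 153 to 602 CPM in Control libraries with a median of 267 CPM. Tyrphostin 1 to 6 had 170, 275, 60.9, 361, 265 and 157 CPM. Of the 6, 4 were below the Control median and 1 below every Control library. The log2 fold change was -0.55 ± 0.31 (SE; adjusted p by edgeR = 0.297), and the test was not passed in any of the 13 alternatives or 17 omissions of 1 library. Leukocytes also carry CD44. Of the 7 leukocyte markers examined, 5 were below the filter, and Ptprc had at most 10 counts in any library. Their summed level ran from 18.7 to 463 CPM in Control and from 20.7 to 859 CPM in Tyrphostin libraries, most of it Lyz2, which reached 819 CPM in a Tyrphostin library. The part of these cells in the Cd44 values was not tested.

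Ugdh and Ugp2 encode the precursor enzymes, and the difference between their changes was not tested. Ugdh (chr5:65413221-65435949, minus strand) ran from 1493 to 3701 CPM in Control libraries with a median of 1665 CPM, and was 1055, 1967, 684, 1429, 1067 and 1090 CPM in Tyrphostin 1 to 6. Here 5 of 6 Tyrphostin libraries lay under the lowest Control library, with Tyrphostin 2 above the Control median. The share of all genes with 5 of 6 so placed was not counted. The log2 fold change was -0.75 ± 0.24 (SE; adjusted p by edgeR = 0.0473). The call passed in 5 of 13 alternatives (adjusted p from 0.0162 to 0.305) and in 8 of 17 omissions of 1 library; it was lost without Control 3, 4, 5, 7 or 11 or Tyrphostin 1, 3, 5 or 6, with values from -0.60 to -0.76 and adjusted p up to 0.124. Ugp2, one step upstream (chr11:21321138-21371201, minus strand), had 15.2 to 46.3 CPM in Control libraries with a median of 38.7 CPM, and 54.8, 47.7, 28.3, 37.6, 53.1 and 31 CPM in Tyrphostin 1 to 6. The groups overlapped, with a log2 fold change of 0.21 ± 0.21 (SE; adjusted p by edgeR = 0.602). Gm43552 on the same strand shares 158 exonic bases with Ugdh, and Gm12043 on the opposite strand shares 78 with Ugp2; how reads in those bases were counted is not given in the sources used here.

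**Figure D2:**
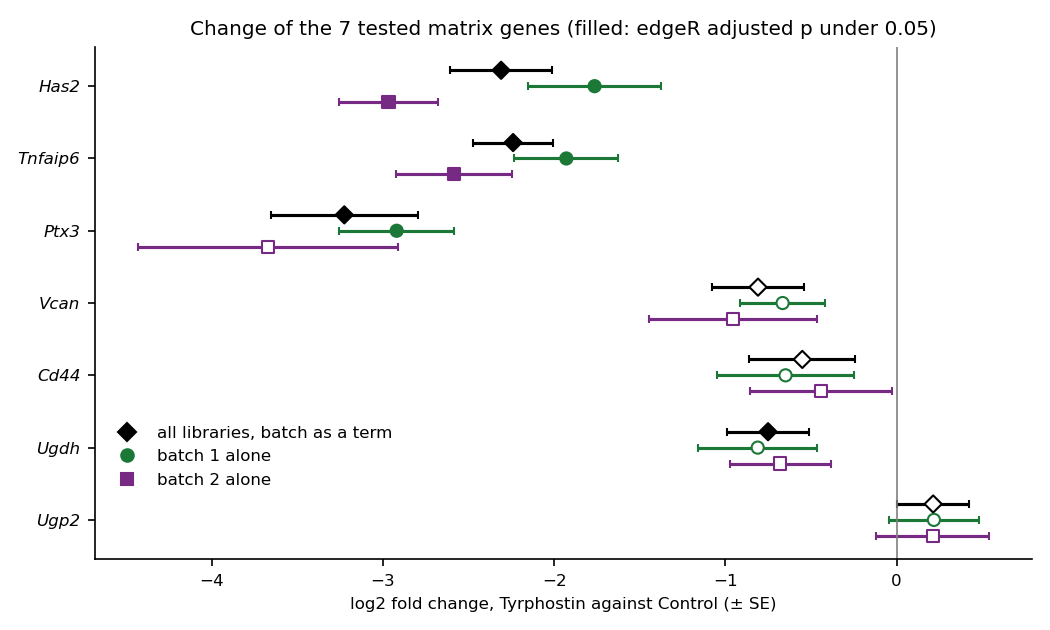
Log2 fold change of Tyrphostin against Control with its SE for the 7 tested members, for the 17 libraries together, batch being a term (diamonds), in batch 1 alone (circles) and in batch 2 alone (squares). Filled symbols have an edgeR adjusted p under 0.05; Has2 and Tnfaip6 are filled in all 3 fits, and Ptx3 lies at -3.23, -2.92 and -3.67 with its batch 2 value open.

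The batches share no libraries, so each member's change was also fitted within each of them. In batch 1, where 3.79% of 9423 genes were called lower and 2.94% higher (6.73% in all), 3 members were called lower: Has2 at -1.76 ± 0.39 (SE; adjusted p by edgeR = 0.0113), Tnfaip6 at -1.93 ± 0.30 (SE; adjusted p by edgeR = 0.000703) and Ptx3 at -2.92 ± 0.34 (SE; adjusted p by edgeR = 3.43e-05). Without Tyrphostin 2 the Has2 value in batch 1 was -1.47 and lost its call (edgeR adjusted p = 0.0666). In batch 2, where 0.427% of 9830 genes were called lower and 0.193% higher (0.621% in all), 2 members were: Has2 at -2.97 ± 0.29 (SE; adjusted p by edgeR = 0.00133) and Tnfaip6 at -2.59 ± 0.34 (SE; adjusted p by edgeR = 0.0058). Has2 had the 2nd lowest p of that fit. Tnfaip6 lost its call there without Tyrphostin 6 (-2.56, edgeR adjusted p = 0.064), and Ptx3, at -3.67 ± 0.76 (SE; adjusted p by edgeR = 0.0646), gained it without Control 7 (-3.91, edgeR adjusted p = 0.0247).

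Vcan, Cd44, Ugdh and Ugp2 passed the edgeR test in neither batch, though in DESeq2 Vcan passed in batch 1 (-0.675, DESeq2 adjusted p = 0.0267). Their values in batches 1 and 2 were -0.67 and -0.96 for Vcan, -0.65 and -0.44 for Cd44, -0.81 and -0.68 for Ugdh, and 0.22 and 0.21 for Ugp2, so each had the same sign in both. In the test of the difference between batches (interaction of treatment and batch), 0 members and 0 of 9603 genes (0%) passed an edgeR adjusted p of 0.05, with 342 genes at an unadjusted p under 0.05. The largest member difference was that of Has2, lower in batch 2 by a log2 difference of -1.20 ± 0.48 (SE; unadjusted p = 0.0203, edgeR adjusted p = 1.00). Its Control means were close in the batches, at 171 CPM ± 76.7 (SD, n = 6) and 159 CPM ± 32.7 (SD, n = 5), whereas its Tyrphostin means were 49.8 CPM ± 19 (SD, n = 3) and 20.3 CPM ± 4.28 (SD, n = 3).

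Control follicles of the batches differed in Tnfaip6. Its Control mean was 8213 CPM ± 2472 (SD, n = 6) in batch 1 and 4269 CPM ± 852 (SD, n = 5) in batch 2, a log2 difference of batch 2 against batch 1 of -0.92 ± 0.23 (SE; adjusted p by edgeR = 0.0147). All 5 of 5 batch 2 values were below the lowest of batch 1, 6334 CPM, and the share of all genes so separated was not counted. Tnfaip6 was the 1 member called lower in batch 2, where 6.77% of 6680 genes tested among Control libraries were called lower and 7.26% higher (14.0% in all). Ptx3 had 66 CPM ± 14.9 (SD, n = 6) and 32.8 CPM ± 25.6 (SD, n = 5), a log2 difference of -1 ± 0.44 (SE; adjusted p by edgeR = 0.141), which was -1.49 (0.0157) without Control 9. Has2 (-0.07 ± 0.29, SE), Vcan, Cd44, Ugdh and Ugp2 did not pass.

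Per kilobase of exon the members spanned a wide range. Mean Control levels in RPKM (CPM divided by exonic length in kilobases) were 3755 ± 1611 (SD, n = 11) for Tnfaip6, 377 ± 146 for Vcan, 305 ± 107 for Ugdh, 45.2 ± 20.3 for Cd44, 39.1 ± 13.8 for Has2, 19 ± 9.68 for Ptx3, 11.8 ± 3.37 for Ugp2 and 0.149 ± 0.102 for Hapln1. Vcan and Ugdh, and likewise Cd44 and Has2, were neighbours within their spread. Among 9559 tested genes with a length, Tnfaip6 ranked 12th in Control and 52nd in Tyrphostin libraries. Has2 went from rank 851 to 2527 and Ptx3 from 1415 to 5573. Vcan moved from rank 128 to 180, Ugdh from 148 to 217 and Cd44 from 757 to 962. With Tyrphostin the order of Has2 and Ugp2 was exchanged: Ugp2 had 13.7 RPKM ± 3.71 (SD, n = 6) and Has2 8.28 ± 4.79 (SD, n = 6), which overlap in range. Ptx3 and Ugp2 also changed places: Ptx3 had 2.08 RPKM ± 1.67 (SD, n = 6) with Tyrphostin, at most 4.98, while the lowest Ugp2 value there was 9.22 RPKM.

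Ratios of 2 members within a library do not depend on scaling. The log2 ratio of Has2 to Tnfaip6 counts had a mean of -5.25 ± 0.89 (SD, n = 11) among Control libraries and of -5.28 ± 0.80 (SD, n = 6) with Tyrphostin, with 0 of 6 Tyrphostin libraries below every Control library. By contrast the log2 ratio of Has2 to Vcan went from -5.01 ± 0.80 (SD, n = 11) in Control to -6.62 ± 0.59 (SD, n = 6), and in 5 of 6 Tyrphostin libraries it was lower than in any Control library. That of Tnfaip6 to Vcan went from 0.24 ± 0.77 (SD, n = 11) in Control to -1.34 ± 0.91 (SD, n = 6), with 4 of 6 below every Control library. The log2 ratio of Ugdh to Ugp2 went from 5.83 ± 0.75 (SD, n = 11) in Control to 4.82 ± 0.49 (SD, n = 6), with 3 of 6 below. The pairs Ugdh to Vcan (-1.36 ± 0.90 and -1.39 ± 0.80) and Cd44 to Ugdh (-2.81 ± 0.58 and -2.63 ± 0.57) had nearly equal means in the groups. The means above pool the batches. Within batches 1 and 2, the Tyrphostin mean minus the Control mean was 0.19 and -0.33 for Has2 to Tnfaip6, and -1.04 and -2.20 for Has2 to Vcan. It was -1.23 and -1.88 for Tnfaip6 to Vcan, and -1.09 and -0.92 for Ugdh to Ugp2. These ratios are descriptions and were given no test.

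**Figure D3:**
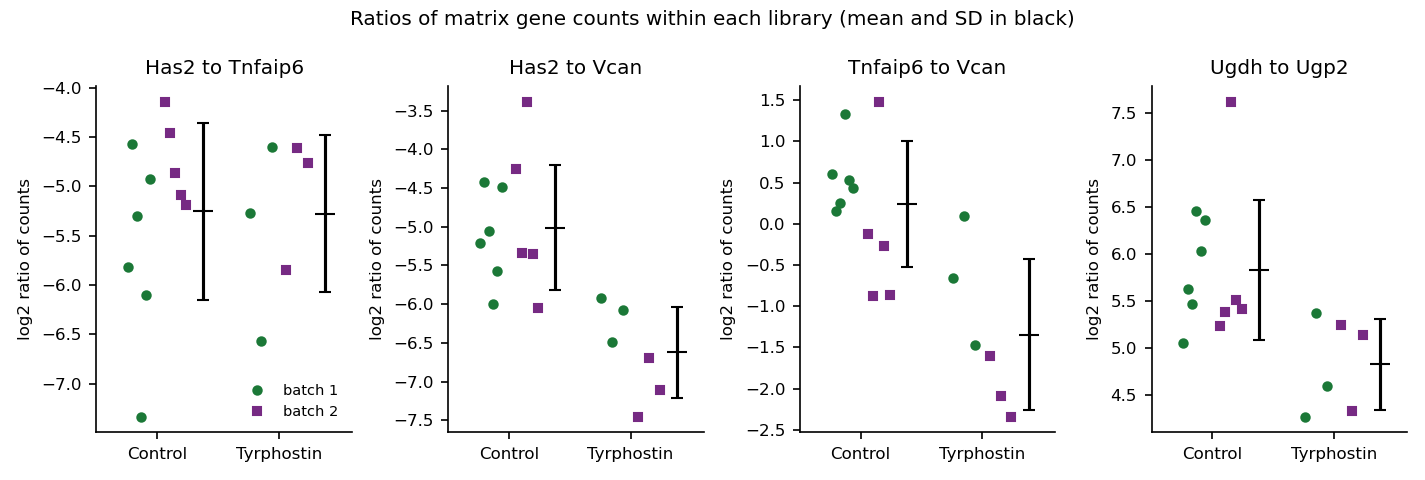
Log2 ratio of the counts of 2 members within each library, for Has2 to Tnfaip6, Has2 to Vcan, Tnfaip6 to Vcan and Ugdh to Ugp2; circles are batch 1, squares batch 2, and black bars give mean and SD per group. Has2 to Tnfaip6 centres on -5.25 and -5.28 in the groups, while both ratios to Vcan are lower in Tyrphostin libraries.

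Other genes of hyaluronan metabolism were read from lists. Of 15 further synthases, hyaluronidases and receptors, 7 were tested, 1 was called lower and 1 higher, beside 6.25% and 4.35% of all genes. The lower one was Has1, a second hyaluronan synthase. Its Control libraries ran from 21.1 to 141 CPM (median 41.6) and its Tyrphostin libraries from 6.46 to 17.5 CPM. Every Tyrphostin library was thus below every Control library, as for 1.00% of all genes tested. The log2 fold change of Has1 was -2.42 ± 0.31 (SE; adjusted p by edgeR = 2.12e-05). The third synthase, Has3, stood at 5.85 CPM ± 2.23 (SD, n = 11) and 4.96 CPM ± 0.369 (SD, n = 6), with -0.19 ± 0.23 (SE; adjusted p by edgeR = 0.681). Hmmr, a hyaluronan-binding protein that also acts at the mitotic spindle, had 0.73 ± 0.23 (SE; adjusted p by edgeR = 0.0473), a call kept in 6 of 17 omissions of 1 library and in 7 of 13 alternatives.

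Partners of the hyaluronan and versican network outside the members were scarce. Of 12 lecticans, link proteins and inter-alpha-inhibitor chains, 9 were below the filter and 0 of the 3 tested were called. Acan, the proteoglycan aggrecan, had at most 41 counts in a library. Itih2, a heavy chain, had -0.23 ± 0.51 (SE; adjusted p by edgeR = 0.847), and Ambp, which encodes the light chain bikunin, had 7 counts over all libraries. The heavy chains that TNFAIP6 transfers are known to come largely from serum.

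Supply of UDP-sugars had 4 of 15 tested genes called lower and 0 higher, beside 6.25% and 4.35% of all genes. The list median was -0.32. Gfpt2, an isoform of the first enzyme of the hexosamine route to UDP-N-acetylglucosamine, fell from 692 CPM ± 209 (SD, n = 11) in Control to 224 CPM ± 82.9 (SD, n = 6), which the fit put at a log2 change of -1.62 ± 0.19 (SE; adjusted p by edgeR = 6.02e-06). Its isoform Gfpt1 had -0.07 (edgeR adjusted p = 0.881). Pgm2, a phosphoglucomutase, fell from 43.1 CPM ± 9.18 (SD, n = 11) in Control to 16.8 CPM ± 2.28 (SD, n = 6), with -1.35 ± 0.16 (SE; adjusted p by edgeR = 7.31e-06). For Gfpt2 and Pgm2 the groups did not overlap, every Tyrphostin library being the lower, as for 1.00% of all genes tested. The glucose transporter gene Slc2a1 (-1.49 ± 0.39, SE) and the hexokinase gene Hk2 (-1.36 ± 0.39, SE) were called at edgeR adjusted p = 0.0179 and 0.0308; without Tyrphostin 2 these were 0.0562 and 0.0823, and Hk2 was also lost without Control 7 (0.0521) or Tyrphostin 3 (0.076). The Slc2a1 call passed in 11 of 13 alternatives, being lost with no filter (0.0802) and with Control libraries summed by set (0.134). The Hk2 call passed in 9 of 13. It was lost in those 2 (0.112 and 0.226) and with the title and library-name numbers as replicate block (0.14 and 0.0555). With the title number, libraries 1 to 3 of each group alone set the change.

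**Figure D4:**
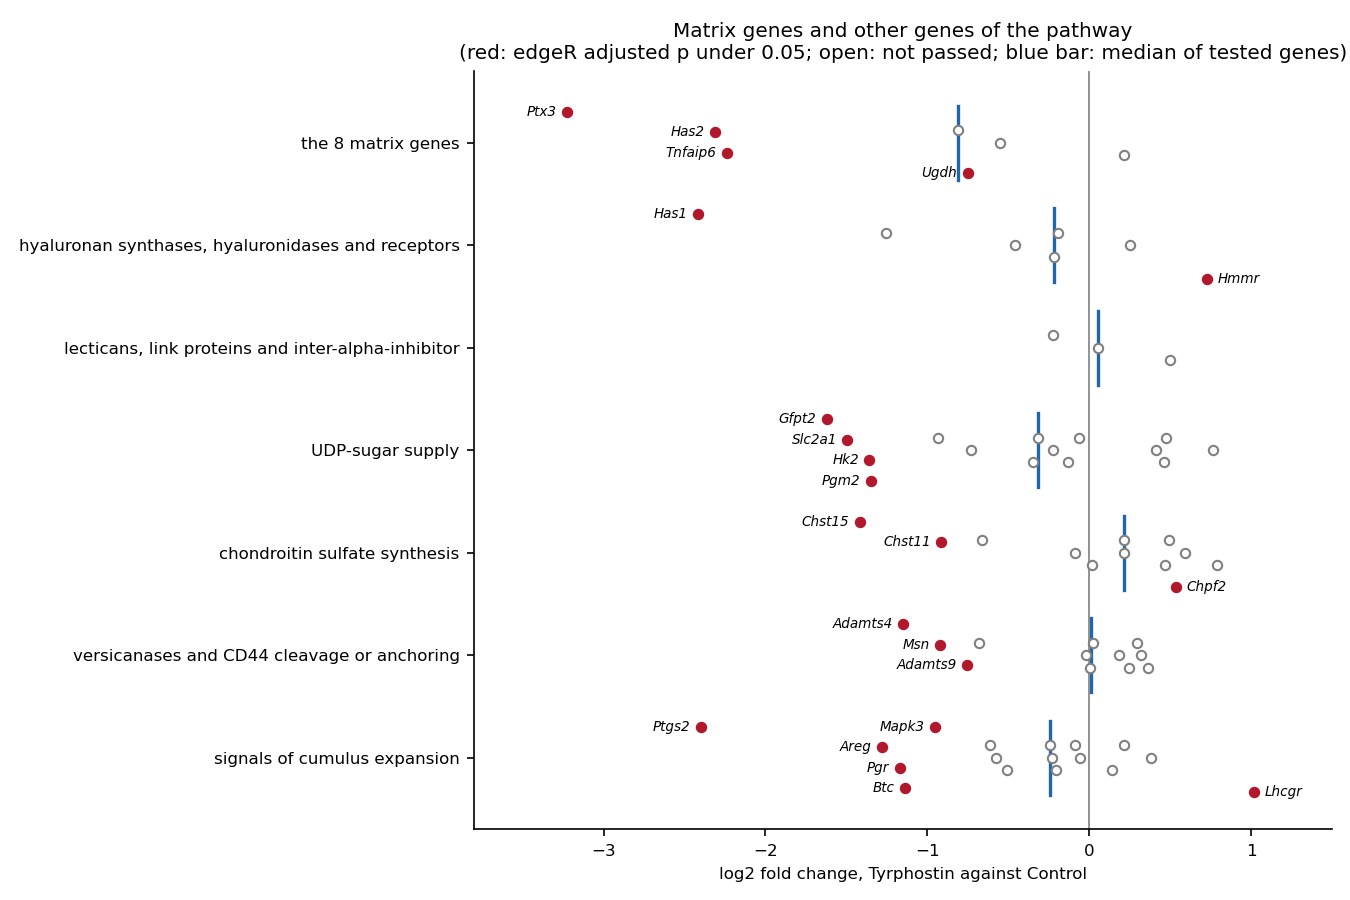
Log2 fold change of Tyrphostin against Control for the tested members and the tested genes of 6 other lists, 1 point per gene; red points have an edgeR adjusted p under 0.05 and are named, open points did not pass, and blue bars mark each list's median. The 3 lowest matrix genes, Ptx3, Has2 and Tnfaip6, and Has1 and Ptgs2 lie below -2, and list medians other than that of the matrix genes (-0.81) lie between -0.32 and 0.21.

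Synthesis of chondroitin sulfate, the chains that versican carries, had 2 of 12 tested genes called lower and 1 higher. Over all genes tested the shares were 6.25% and 4.35%. The sulfotransferase genes Chst15 and Chst11 fell by 1.42 ± 0.21 and 0.91 ± 0.17 (SE) on the log2 scale (edgeR adjusted p = 6.09e-05 and 0.000688). The polymerising factor gene Chpf2 had 0.54 ± 0.17 (SE; adjusted p by edgeR = 0.0459), a call kept in 5 of 17 omissions of 1 library and in 9 of 13 alternatives (adjusted p up to 0.104). The list's median was 0.21. Among 12 tested genes for cutting versican or CD44 or for anchoring CD44 at the cell cortex, 3 were called lower and 0 higher. Msn, which encodes the CD44 anchor moesin, fell from 183 CPM ± 34.6 (SD, n = 11) in Control to 94.6 CPM ± 8.98 (SD, n = 6), with -0.92 ± 0.16 (SE; adjusted p by edgeR = 0.000361). The versican-cutting protease genes Adamts9 and Adamts4 had -0.75 ± 0.16 and -1.15 ± 0.30 (SE; adjusted p by edgeR = 0.00232 and 0.0165), and Adamts4 lost its call without Tyrphostin 1 (0.0559), Tyrphostin 2 (0.0558) or the batch term (0.144), and with Control libraries summed by set (0.056). Adamts9 lost its call with the title number as replicate block (-0.57, edgeR adjusted p = 0.163), where libraries 1 to 3 of each group alone set the change. Adamts1 had 0.02 ± 0.22 (SE; adjusted p by edgeR = 0.968), with 851 CPM ± 337 (SD, n = 11) and 823 CPM ± 350 (SD, n = 6).

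Genes that act upstream of cumulus expansion had 5 of 17 called lower and 1 higher, beside 6.25% and 4.35% of all genes. Ptgs2, the prostaglandin synthase whose product drives expansion, stood at a median of 7268 CPM in Control and 1139 CPM in Tyrphostin libraries. Its groups did not overlap, every Tyrphostin library being the lower, as for 1.00% of all genes tested. The called ligand genes were Btc (-1.14 ± 0.23, SE; adjusted p by edgeR = 0.00173) and Areg (-1.28 ± 0.40, SE; adjusted p by edgeR = 0.0493), the Areg call being kept in 4 of 17 omissions of 1 library and in 6 of 13 alternatives. Ereg, the ligand gene with the most counts, was not called: its mean was 11665 CPM ± 5618 (SD, n = 11) for Control and, with Tyrphostin, 9574 CPM ± 2536 (SD, n = 6), at -0.21 ± 0.25 (SE; adjusted p by edgeR = 0.672). The progesterone receptor gene Pgr had -1.17 ± 0.30 (SE; adjusted p by edgeR = 0.0141) and the LH receptor gene Lhcgr 1.02 ± 0.24 (SE; adjusted p by edgeR = 0.00765). Without the batch term the calls of Btc (0.0659), Pgr (0.133) and Lhcgr (0.0596) were lost, as was that of Pgr with no filter (0.0635) and that of Lhcgr with Control libraries summed by set (0.0512). Mapk3, which encodes the kinase ERK1 and was named after its value was seen and not refitted under the alternatives, had -0.96 ± 0.27 (SE; adjusted p by edgeR = 0.0248). The oocyte factor genes Gdf9 and Bmp15, whose products enable cumulus cells to expand, had -0.09 and -0.06 (edgeR adjusted p = 0.909 and 0.946).

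Markers of cell types were set beside these changes. In the granulosa list 4 of 8 tested genes were called higher and 0 lower, beside 4.35% and 6.25% of all genes. They were Hsd17b1 (2.64), Cyp19a1 (2.35), Nr5a2 (2.18) and Fshr (0.83). Inha (-0.05), Inhba (-0.07) and Gja1 (0.34), with the most counts of the list, were not called, and neither was Amhr2 (0.49). The list's summed level, made up mostly of Inha, Inhba and Gja1, was 85730 to 107500 CPM in Control and 78460 to 115000 CPM in Tyrphostin libraries. Of the cumulus markers, Slc38a3 and Amh had at most 10 and 4 counts in any library. Npr2 had 0.45 and Ube2c 0.42 (edgeR adjusted p = 0.0915 and 0.26). The mural genes Nppc and Lhcgr were called higher and Cd34 had 0.06. Together these cumulus and mural genes, with Lhcgr having the most counts, summed to 285 to 1327 CPM in Control and 787 to 1587 CPM in Tyrphostin libraries. Oocyte, theca and stroma, endothelium and leukocyte lists had 0 called genes of 11, 9, 2 and 2 tested. The theca and stroma sum ran from 269 to 2167 CPM in Control and from 275 to 3092 CPM in Tyrphostin libraries, the highest being Tyrphostin 5, and the oocyte sum from 32.4 to 216 CPM and from 35.6 to 388 CPM. Mitochondrially encoded genes summed to 1438 CPM in Control 7 and to at least 5953 CPM in the other libraries. In batch 2 the other 4 Control libraries had 14400 to 18880 CPM and the 3 Tyrphostin libraries 5953 to 9818 CPM. Most counts of this list were of mt-Co1 (770814 in all), which had -1.24 (edgeR adjusted p = 0.307). Of the 6 genes tested 0 were called, 2 were negative and 4 positive (mt-Nd1 0.34, mt-Nd2 0.23, mt-Nd4 0.10, mt-Nd5 0.11). With Control 7 and Tyrphostin 5 both left out, 4 members were called lower: Has2, Tnfaip6, Ptx3 and Vcan (-0.79, edgeR adjusted p = 0.0204), Ugdh having an adjusted p of 0.0898; in that fit 669 of 9692 genes were called lower and 529 higher. The part of cell composition and of mitochondrial RNA in the members' changes was not tested.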

How the data were processed

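RNA-seq was analysed for 11 Control and 6 Tyrphostin libraries, made by Smart-Seq2 without molecular identifiers per the labels' protocols. The values are raw gene counts, whole numbers by symbol as deposited; STAR, HTSeq and GRCm38 are named per the submitters' processing notes, and versions, annotation and strand setting are not given in the sources used here. Columns were matched to samples by the names in the labels. Of 25198 rows, 3576 held no count. Among 31 pairs within a group and batch, 0 were identical, and chi-square divided by its degrees of freedom was 11.8 to 84.1 (genes with at least 10 counts in the pair).

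Tests used edgeR 4.0.16 in R 4.3.3 (filterByExpr on treatment, TMM, robust quasi-likelihood F test); an SE is the log2 fold change divided by the square root of F. Alternatives used DESeq2 1.42.0 and limma 3.58.1 (voom), other scalings, filters and covariates, and omission of each library. The code was tested on simulated data. Gene positions and exonic lengths came from GENCODE M21 (9559 of 9603 tested genes, 99.5%) and promoter sequences from RefSeq (GRCm38.p6). The 8 members were always named; from each list up to 4 called genes of lowest p were named, with Has1, Has3, Itih2, Ambp, Acan, Adamts1, Ptgs2, Areg and Egfr whatever their result; other genes in the text, such as Gfpt1, Ereg, Gdf9, Bmp15 and single cell markers, were named after their values were seen. Egfr had -0.61 ± 0.23 (SE; adjusted p by edgeR = 0.102). It passed in 2 of 17 omissions of 1 library, those of Tyrphostin 5 (0.0219) and Control 9 (0.0473), and in 2 of 13 alternatives. Its adjusted p reached 0.235 over the omissions and 0.245 over the alternatives. Members and lists were chosen with earlier results of these data known. The 3-count floor reflects counting error alone, because PCR duplicates cannot be separated from molecules.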

Additional observations from a re-analysis of the deposited data

Results flagged for a closer look

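A library far from the others in CPM was looked for in each of 24 groups of 5 or 6 libraries. These groups were the 8 members in Control of batch 1, Control of batch 2 and Tyrphostin. Such a library was found in 2 groups, where chance gives about 1.2 if values are normally distributed, which was not tested. Tnfaip6 reached 13109 CPM in Control 4, against 6334 to 8057 CPM in the other 5 Control libraries of batch 1. Ugdh reached 2996 CPM in Control 7, against 1493 to 1928 CPM in the other 4 Control libraries of batch 2.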

How the results depend on the processing

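Has2, Tnfaip6 and Ptx3 had the same direction and remained called for Tyrphostin against Control in 13 of 13 alternatives and 17 of 17 omissions of 1 library; their log2 fold changes over the alternatives ran from -2.51 to -2.06, -2.33 to -1.83 and -3.41 to -2.92. The count of members called lower was 3 to 5 in both. The 1018 genes called became 619 without the batch term and 708 to 1314 in omissions. They became 636 with the sample title number and 987 with the library-name number as a replicate block. With the title number the change came from libraries 1 to 3 of each group alone. Within batch 1, 634 genes were called (394 to 687 in omissions, 924 in DESeq2) and 3 members (2 to 3 in omissions, 4 in DESeq2). Within batch 2, 61 genes became 222 with no filter, 303 in DESeq2 and 11 to 221 in omissions, and 2 members 1 to 3. The interaction gave 0 genes, and 79 with no filter. Between Control batches 937 genes became 1473 in DESeq2 (637 to 1025 in omissions), and the 1 member called lower became 2 with no filter, 2 in limma-voom and 1 to 2 in omissions.

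Signs turned for values near 0. Adamts1 (0.02) had -0.0228 in limma-voom, -0.0208 with a correlation within Control sets, -0.0471 without the batch term, -0.402 and -0.0758 with the title and library-name numbers as replicate block, and -0.0762 to 0.183 in omissions. Itih2 (-0.23) had 0.106 in limma-voom, 0.117 with the correlation and 0.108 with the title block. Has2 between Control batches (-0.07) had 0.0843 with total counts, 0.0344 in limma-voom and -0.216 to 0.139 in omissions, and Ugp2 in batch 2 (0.21) had -0.0277 to 0.378 in omissions. The cause was not tested for these or the counts above.

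Control and Tyrphostin share title numbers, and deviations from batch and group means correlated by 0.03 to 0.32 over the 6 numbers. Over the 5 library-name numbers these correlations were -0.27 to 0.11. Title numbers 4 to 6 join Control libraries of batch 1 to Tyrphostin libraries of batch 2, and numbers 7 to 11 occur in Control alone. The fit with the title number as replicate block thus takes its change from libraries 1 to 3 of each group. Deviations from group means alone, which keep the batch difference, reached 0.47 by title and 0.49 by library name. The correlation within Control sets in limma-voom was 0.17. With as few as 3 libraries in a group and batch, these values cannot show whether samples shared animals or cultures, which the labels do not state. Hapln1 was too low to pass the filter on counts.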

Other observations

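Genes of like pattern were sought among 6332 genes with a mean of at least 3 log2 CPM, by the root mean square difference of log2 CPM profiles centred over the 17 libraries, with no test. Nearest to Has2 were Mical1 (0.603) and Fetub (0.648), to Tnfaip6 Hmga1 (0.425) and Plpp3 (0.429), and to Ptx3 Runx2 (0.797) and Esm1 (0.837), where the members' own deviations were 1.26, 1.31 and 1.81. Hmga1 and Plpp3 had log2 fold changes of -1.97 ± 0.24 and -1.83 ± 0.19 (SE). Nearest to Cd44 were S100a10 (0.406) and Cav1 (0.448), to Vcan Bicd1 (0.343) and Naa50 (0.348), to Ugdh Clic1 and Cdc42se1 (0.295 each), and to Ugp2 Cnot7 (0.25) and Sugt1 (0.268). Among the members, the closest pair was Cd44 and Ugdh (0.549) and the farthest Ptx3 and Cd44 (1.91); Has2 and Tnfaip6 were 0.809 apart.

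Control 7 was an extreme of the Control group in several members: it held the highest Cd44 (602 CPM) and the lowest Vcan (1740 CPM), Ptx3 (7.87 CPM) and Ugp2 (15.2 CPM) of the 11 Control libraries, while its Has2 (166 CPM) was the Control median. The same library had the lowest summed level of mitochondrially encoded genes, and the part of that in these values was not tested.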
